A study of Mus musculus with 9 samples.

Results

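The genes described here are 44 interferon-stimulated and antigen processing genes of the mouse, measured in NIH 3T3 cells (a fibroblast line established from mouse embryos) after RNA interference against either of 2 enzymes of the NEDD8 pathway. They were chosen by name, with earlier results of these data known. Shares of them set beside those of all genes therefore describe the set and do not test it. A gene was read from its probe set of highest mean, and 18193 genes had a probe set of their own. Of the 44 genes 42 had such a probe set, and Isg15 and Ifi44 were not analysed here. Of the 42, 32 had a mean of log2(signal + 16) over all 9 arrays at or above a low-signal level, the median of all probe sets (6.12, a signal of 53.8), and were tested among 10613 genes.

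The 9 arrays form groups of 3 biological replicates each, cells with a retroviral vector for a short hairpin RNA (shRNA) against Ube2m, cells with one against Ube2f and cells with a control shRNA. RNA was taken 5 days after transduction in every group. The products of both genes are E2 enzymes, which pass NEDD8 (a small modifier related to ubiquitin) on to cullins, on which a family of ubiquitin ligases is built. The title of the series frames the question as how pairs of E2 and RING proteins choose among cullins. Per the growth label, the cells of all 3 groups expressed Ube2f, without saying whether a construct had been added. The labels name no clone and no number of hairpins per gene, so effects of a hairpin on other transcripts cannot be told apart from loss of its target.

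The signal of Ube2f averaged 132 ± 13.2 in Ube2f shRNA arrays and 2539 ± 199 in control shRNA arrays (SD, n = 3 arrays each). The level of Ube2m was not analysed here, so its reduction was not checked. All 10 fibroblast markers were at or above the low-signal level. Of these Col5a1 and Thy1 fell with Ube2m shRNA (limma adjusted p = 0.0073 and 0.0163), Pdgfra rose with Ube2f shRNA (adjusted p = 0.01), and 4 were lower with Ube2m shRNA than with Ube2f shRNA. At or above that level were, of 15 macrophage and dendritic cell markers 5, of 9 measured lymphocyte and NK cell markers 1, of 9 epithelial markers 3 and of 7 endothelial markers 0. The summed signal of the macrophage and dendritic cell markers was 1116 to 1368 in Ube2m shRNA arrays, 974 to 1072 in Ube2f shRNA arrays and 1167 to 1221 in control shRNA arrays. The 5 at or above the level were Cd14, Csf1r, Lyz2, Laptm5 and Cd74, while Ptprc and Itgam averaged at most 18.2 in any group. Cd14 averaged 508 in Ube2m shRNA, 349 in Ube2f shRNA and 422 in control shRNA arrays and was called between the hairpins (0.52, limma adjusted p = 0.0294). In the same order Csf1r averaged 176, 103 and 175, and Lyz2 143, 196 and 190. Csf1r, Lyz2, Laptm5 and Cd74 were not called in any comparison. The summed epithelial markers read 5822 to 6560 in Ube2m shRNA arrays, 2739 to 4214 in Ube2f shRNA arrays and 3282 to 5396 in control shRNA arrays, most of it from the keratin gene Krt14. Krt14 was called between the hairpins, higher with Ube2m shRNA (0.98, limma adjusted p = 0.00599), and was not called against control (adjusted p = 0.152 with Ube2m shRNA and 0.195 with Ube2f shRNA). The part of any of these markers in the results below was not tested. Replicate 3 of each group stood apart, with median signals of 64 to 73.5, against 53.3 to 58.5 on the other 6 arrays, so calls that change with a term for replicate 3 in the fit are given. The actin probe sets, a gauge of RNA quality, also set control shRNA replicate 1 apart: their 3' over 5' signal was 1.82 there and 1.24 to 1.35 elsewhere.

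Cells detect viral nucleic acid with cytosolic sensors such as RIG-I (Ddx58) and MDA5 (Ifih1), which switch on type I interferon through the factors IRF3 and IRF7. Secreted interferon acts through its receptor and JAK kinases on a complex that holds STAT2 and IRF9. This complex binds interferon-stimulated response elements and induces many of the genes described here. Many products block viruses directly, and others cut, transport and load peptides onto MHC class I molecules. Fibroblasts are a classic cell for studying this response.

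The response element is the sequence by which many such genes are recognised. The upstream stretches of 6 genes that the results turn on are therefore shown first. The 300-base windows around RefSeq starts (250 bases before and 50 after, build GRCm38.p6) covered 35 of the 44 genes. The core searched for, on both strands, was a pair of GAAA half-sites with any 2 bases between them. It was in a window of 14 of these 35 genes (40.0%), and in 3.99% of all 27025 genes with a window. The core of the gamma-activated sequence bound by STAT dimers, TTCNNNGAA, was in 10 of the 35 (28.6%) and in 9.55% of all genes. The 2 cores overlapped each other in 2 windows of the set. Each stretch below is 100 bases long, lies wholly before the start and is written along the strand of its gene, with either core in capitals. Ifit1 (chr19:34640759-34640858, plus strand) and its relative Ifit3 (chr19:34583362-34583461, plus strand), both hold 2 response element cores, and Oas1a (chr5:120907526-120907625, minus strand) holds 2 that overlap each other and 1 gamma-activated core. Cxcl10 (chr5:92349040-92349139, minus strand) holds 1. Psmb9 (chr17:34187331-34187430, minus strand) and Tapbp (chr17:33919378-33919477, plus strand) hold neither core in their windows, which says only that these letters are not there.
Ifit1: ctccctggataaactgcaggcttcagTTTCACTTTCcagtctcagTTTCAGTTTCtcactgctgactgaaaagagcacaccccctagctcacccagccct
Ifit3: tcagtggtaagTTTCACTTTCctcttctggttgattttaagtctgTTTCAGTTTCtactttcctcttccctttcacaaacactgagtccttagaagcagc
Oas1a: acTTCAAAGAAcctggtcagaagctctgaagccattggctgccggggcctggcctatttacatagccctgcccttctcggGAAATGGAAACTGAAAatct
Cxcl10: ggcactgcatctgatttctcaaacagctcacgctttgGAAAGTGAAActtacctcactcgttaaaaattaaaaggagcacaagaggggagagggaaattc
Psmb9: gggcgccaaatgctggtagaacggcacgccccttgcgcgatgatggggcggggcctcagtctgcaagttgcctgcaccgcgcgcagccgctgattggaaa
Tapbp: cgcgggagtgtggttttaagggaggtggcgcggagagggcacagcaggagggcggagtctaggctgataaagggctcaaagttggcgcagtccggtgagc

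With Ube2m shRNA a small group of these genes was higher than in control, led in certainty by Tapbp and Ddx58, and most of the interferon response was not called changed. Of the 32 tested genes 5 rose (Tapbp, Ddx58, Oas1a, Ifit1 and Trim25) and 1 fell (Adar) by limma with Benjamini-Hochberg adjustment over all genes, at an adjusted p of 0.05. That is 18.8% called, where 9.71% of all genes tested were called. It is also 15.6% rising, where 3.59% of all genes tested rose, and 3.12% falling, where 6.12% of all genes fell. The 3 arrays of the Ube2m group all lay above the 3 of control for 14 of the 32 (43.8%, against 11.6% of all genes) and all below for 2 (6.25%, against 18% of all genes). The median difference on the scale of log2(signal + 16), used for every fold change here, was 0.27 over the 32 genes and -0.04 over all genes tested. Over all 42 measured genes, with no filter, the median was 0.17. Within replicates 1 and 2 the median of the 32 was 0.17 and within replicate 3 it was 0.36. Oas1a, Ifit1 and Cxcl10 had control means under the low-signal level and entered the test through the groups where they were high. These shares and the medians of the 32 are therefore not read as support. With no filter the same 5 of all 42 measured genes rose (11.9%, against 1.72% of all 18193 genes) and 0 fell by limma. With a term for replicate 3, 13 of the 32 were called in place of 6, the further ones being Cxcl10, Ifi35, Isg20, Psmb10, Xaf1 and B2m, higher, and Samd9l, lower. The share over all genes with that term is not given here, so the larger count is not read as particular to these genes. The number called ranged from 3 to 8 when single arrays were left out. It was 3 without Ube2m shRNA replicate 1 and 3 without Ube2m shRNA replicate 2.

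With Ube2f shRNA fewer of these genes were called, and the calls were less stable. Oas1a, Trim25 and Psmb9 rose and 0 of the 32 fell by limma. So 9.38% were called and rose, where 5.19% of all genes tested were called, 2.23% rose and 2.96% fell. At an unadjusted limma p under 0.05, 9 of the 32 differed with Ube2f shRNA and 14 with Ube2m shRNA. The share of all genes at that p is not given here, so these counts are not read as particular to these genes. Oas1a again entered the test through the groups where it was high, and with no filter Trim25 alone of the 42 measured genes was called, higher (2.38%, against 0.923% of all genes). With a term for replicate 3, 6 of the 32 were called, with Ifi35, Samd9l and Xaf1 added, all higher. Here too the share over all genes with that term is not given, and the count is not read as particular to these genes. The groups did not overlap for 11 genes that were higher (34.4%, against 11.6% of all genes) and 1 that was lower (3.12%, against 11.6%). Oas1a and Ifit1, which passed the filter through their high groups, were among the 11, so these shares are not read as support. The median difference was 0.21 over the 32 genes and 0.01 over all genes, with 0.18 in replicates 1 and 2 and 0.37 in replicate 3. Of the 32 differences 27 were positive, as were 5493 of those of all 10613 genes tested. This count includes Oas1a and Ifit1 and is not read as support either. With arrays centred on their medians, 27.2% of the genes called among all genes tested were rises, against 43% as scaled by the authors. With that centring 2 of the 32 genes were called, both higher, where 138 of all genes tested rose and 370 fell. The number of these genes called was 0 without Ube2f shRNA replicate 1, without Ube2f shRNA replicate 2 or without control shRNA replicate 2. It was 1 without Ube2m shRNA replicate 1, control shRNA replicate 1 or control shRNA replicate 3, and 2 without Ube2m shRNA replicate 2 or Ube2f shRNA replicate 3. Both comparisons with control rest on the same 3 control arrays.

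Set directly against each other, the hairpins differed in 4 of the 32 genes (12.5%, where 15.8% of all genes tested differed). Ddx58 and Tapbp were higher with Ube2m shRNA than with Ube2f shRNA (6.25%, where 6.37% of all genes tested were higher), and Samd9l and Irf3 were lower (6.25%, where 9.38% of all genes were lower). These shares were no larger than those over all genes, and the median difference of -0.03 was close to that of all genes, -0.04. With a term for replicate 3 Cxcl10 and Isg20 were called too, both higher with Ube2m shRNA. The share over all genes with that term is not given here. The signals of the genes called in any comparison as reported are plotted by array, together with Cxcl10.

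**Figure D1:**
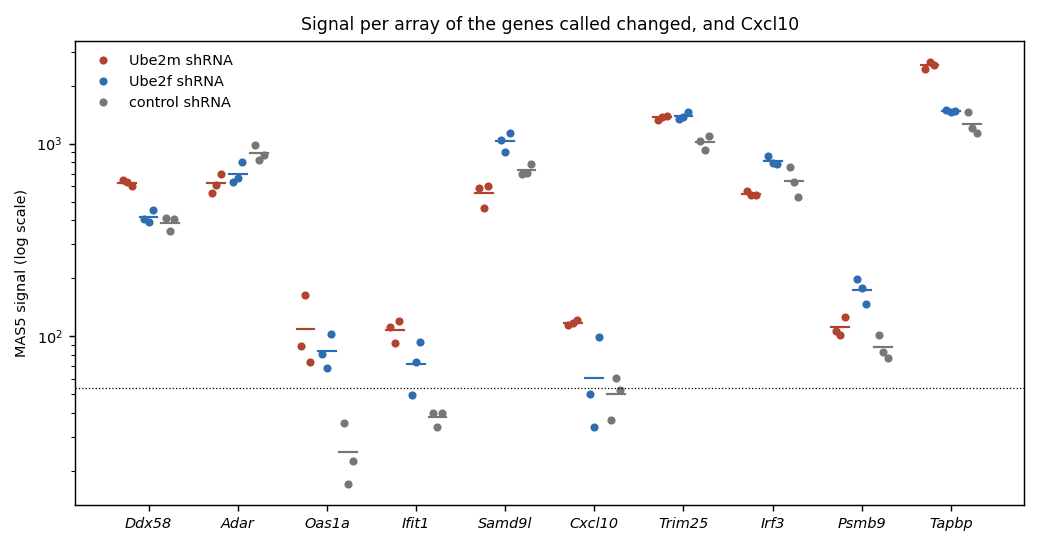
Signal per array (log scale) of the 9 genes called changed in any comparison and of Cxcl10, by group, with Ube2m shRNA left, Ube2f shRNA in the middle and control shRNA right. Points are the 3 arrays, short lines their means and the dotted line the low-signal level of 53.8. The Ube2m shRNA points of Tapbp and Ddx58 stand clear of both other groups, while the control points of Oas1a and Ifit1 lie under the dotted line.

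Among the sensors of RNA, Ddx58, which encodes RIG-I, was the clearest. Its signals were 649, 631 and 602 in Ube2m shRNA arrays, 408, 393 and 455 in Ube2f shRNA arrays and 410, 351 and 406 in control shRNA arrays. Every Ube2m shRNA array lay above every array of the other groups, which overlapped each other. The difference was 0.67 against control (SE 0.13, limma adjusted p = 0.00659) and 0.57 against Ube2f shRNA (adjusted p = 0.00883), and both passed without any 1 of the 9 arrays. Ube2f shRNA against control gave 0.10 (95% interval -0.17 to 0.37, adjusted p = 0.71). Of the 3 probe sets for Ddx58, a second above the low-signal level moved the same way, with 82.8 in Ube2m shRNA, 64.9 in Ube2f shRNA and 42.5 in control shRNA arrays, and the third was below it. With all 3 averaged neither call held, at 0.52 (adjusted p = 0.129) against control and 0.34 (adjusted p = 0.306) against Ube2f shRNA. The window of Ddx58 holds a response element core just after the start.

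Oas1a, a synthetase that is activated by double-stranded RNA and makes the messenger for RNase L, was higher with either hairpin. It read 89.2, 165 and 73.2 in Ube2m shRNA arrays, 81.3, 68.8 and 103 in Ube2f shRNA arrays, against 35.5, 17.2 and 22.6 in control shRNA arrays. The targeted groups overlapped each other, and both lay above control. The log2 fold change was 1.56 with Ube2m shRNA (SE 0.32, adjusted p = 0.0105) and 1.3 with Ube2f shRNA (SE 0.32, adjusted p = 0.036). All control signals were under the low-signal level, so Oas1a passed the filter through the targeted groups, and with a constant of 64 in place of 16 the values were 0.93 and 0.73 (adjusted p = 0.0598 for Ube2f shRNA). The Ube2m call was lost without Ube2m shRNA replicate 2, the array with 165 (1.26, adjusted p = 0.0607), and the Ube2f call was lost in 7 of the 9 leave-one-out fits, with adjusted p up to 0.119. It passed only without Ube2m shRNA replicate 2 or replicate 3. Relatives of the Oas family are close enough in sequence that probes may be shared.

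Adar, which edits adenosine in double-stranded RNA and restrains sensing of the cell's own RNA, moved the other way on its chosen probe set. It read 552, 614 and 699 in Ube2m shRNA arrays, 632, 660 and 802 in Ube2f shRNA arrays and 986, 826 and 869 in control shRNA arrays. Both targeted groups lay below control, by a log2 fold change of -0.52 with Ube2m shRNA (SE 0.14, adjusted p = 0.0329) and of -0.35 with Ube2f shRNA (adjusted p = 0.166). The 3 probe sets of Adar disagreed, with differences between Ube2m shRNA and control of -0.52, 0.36 and -0.06, and their average gave -0.07 (adjusted p = 0.879). The call was also lost without Ube2m shRNA replicate 1 or 2 (adjusted p = 0.144 and 0.109) and without any 1 of the control shRNA arrays (adjusted p = 0.0510 to 0.119, the highest without replicate 1, the array with the high actin ratio), so the call rests on a single probe set and on most single arrays.

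The other sensors were not called in any comparison. Ifih1, which encodes MDA5, read 71.4 to 105 in Ube2m shRNA arrays and 83.9 to 134 in Ube2f shRNA arrays, against 57.1 to 68.5 in control shRNA arrays. Neither targeted group overlapped control, and the differences of 0.35 (adjusted p = 0.445) and 0.55 (adjusted p = 0.247) did not pass. Eif2ak2, the kinase PKR that halts translation on double-stranded RNA, read 288, 326 and 391 in Ube2m shRNA arrays, 268, 291 and 483 in Ube2f shRNA arrays and 396, 375 and 430 in control shRNA arrays. The groups overlapped, and the differences were -0.25 (SE 0.20, adjusted p = 0.49) and -0.24 (SE 0.20, adjusted p = 0.561). Its 3 probe sets again disagreed, with 0.01 and 0.48 on the others for Ube2m shRNA. The signals of Dhx58, Zbp1, Oas2, Oasl1 and Oasl2 were below the low-signal level in mean log2(signal + 16) and were not tested. Oasl1, an Oas relative, read 45.5, 53.5 and 79.6 with Ube2m shRNA, 47.5, 11.1 and 49.3 with Ube2f shRNA and 124, 27.2 and 93.6 in control, and all 3 groups overlapped.

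Of the antiviral effectors, Ifit1 was called higher with Ube2m shRNA, and its relatives Ifit2 and Ifit3 were not called. Ifit proteins bind foreign RNA and hold back its translation. The signal of Ifit1 was 112, 92.3 and 121 in Ube2m shRNA arrays, 49.8, 73.5 and 93.5 in Ube2f shRNA arrays and 39.8, 33.9 and 40.1 in control shRNA arrays. The Ube2m group lay wholly above control and overlapped the Ube2f group, which also lay above control. The log2 fold change was 1.2 with Ube2m shRNA (SE 0.27, adjusted p = 0.0155) and 0.68 with Ube2f shRNA (SE 0.27, adjusted p = 0.17), and the difference between the hairpins was 0.52 (95% interval -0.06 to 1.10, adjusted p = 0.226). All control signals were again under the low-signal level, so Ifit1 too passed the filter through the targeted groups, and a constant of 64 gave 0.75 for Ube2m shRNA. The call was lost without Ube2m shRNA replicate 1 (1.18, adjusted p = 0.0635).

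Ifit3 and Ifit2, which are neighbours on chromosome 19, had differences of the opposite sign from Ifit1 that did not pass. Ifit3, whose printed stretch carries the same kind of paired cores as that of Ifit1, read 105, 122 and 172 with Ube2m shRNA, 162, 142 and 124 with Ube2f shRNA and 161, 190 and 154 in control. Its difference was -0.32 with Ube2m shRNA (95% interval -0.78 to 0.14) and -0.22 with Ube2f shRNA (95% interval -0.68 to 0.24). Ifit2 read 820, 929 and 1102 with Ube2m shRNA, 1103, 894 and 1361 with Ube2f shRNA and 1029, 968 and 1350 in control, with differences of -0.22 (95% interval -0.60 to 0.15) and 0.00 (95% interval -0.38 to 0.38). The groups overlapped for both genes in both comparisons with control.

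Cxcl10, the chemokine that draws T cells to sites of interferon, read 114, 118 and 121 in Ube2m shRNA arrays, 50, 34 and 98.7 in Ube2f shRNA arrays and 36.7, 60.9 and 52.6 in control shRNA arrays. The Ube2m group lay above both others without overlap. The difference of 1.03 on the log2 scale against control just missed the threshold (SE 0.31, adjusted p = 0.0579), as did 0.89 against Ube2f shRNA (adjusted p = 0.0774). The first passed in 7 of 21 alternatives, with adjusted p from 0.0241 (with a term for replicate 3) to 0.188, and control signals were near or under the low-signal level. The control mean lay under that level, so Cxcl10 too passed the filter through its higher groups. Xaf1, a partner of the apoptosis inhibitor XIAP, was almost equally high with both hairpins, with 273, 281 and 283 in Ube2m shRNA arrays and 268, 309 and 258 in Ube2f shRNA arrays, against 208, 192 and 182 in control shRNA arrays. Neither targeted group overlapped control, and neither difference passed (0.49, adjusted p = 0.0558, and 0.48, adjusted p = 0.0831), though both did with a term for replicate 3.

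Samd9l, a restriction factor that in human cells blocks protein synthesis, had the lowest difference between the hairpins among the 32 genes. It read 591, 466 and 602 in Ube2m shRNA arrays, against 1044, 908 and 1134 in Ube2f shRNA arrays, with control shRNA arrays between them at 698, 706 and 780. No array of one group overlapped those of another. The difference of Ube2m shRNA from Ube2f shRNA was -0.88 on the log2 scale (SE 0.13, adjusted p = 0.000917) and passed in all 22 alternatives, with values from -0.97 to -0.76. Against control neither hairpin passed, with -0.39 for Ube2m shRNA (adjusted p = 0.0876) and 0.49 for Ube2f shRNA (adjusted p = 0.0587). With a term for replicate 3 both passed, lower with Ube2m shRNA (adjusted p = 0.0241) and higher with Ube2f shRNA (adjusted p = 0.0118).

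The remaining effectors did not pass. Ifi35, which forms a complex with Nmi, read 5404, 4974 and 3576 with Ube2m shRNA, 4594, 5139 and 2748 with Ube2f shRNA and 3090, 3378 and 2474 in control. It was lowest on replicate 3 of every group, and its differences were 0.63 (adjusted p = 0.0913) and 0.44 (adjusted p = 0.283), both of which passed with a term for replicate 3. Isg20, an RNA exonuclease, had 0.50 with Ube2m shRNA (adjusted p = 0.121), which passed with that term, and 0.03 with Ube2f shRNA. Bst2 (tetherin, which holds budding virus at the cell surface) had 0.31 and 0.37. Ifitm3, which blocks the fusion of viral and cell membranes, was level, with 10835 ± 804 in Ube2m shRNA, 11112 ± 1130.3 in Ube2f shRNA and 10888 ± 801 in control shRNA arrays. The 95% interval of its difference was -0.24 to 0.23 with Ube2m shRNA and -0.21 to 0.26 with Ube2f shRNA. Mx1, Mx2 and Rsad2 were below the low-signal level on average and were not tested, and Mx2 read at most 12 on any array.

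Of the genes for conjugation of ISG15, ubiquitin and ADP-ribose, Trim25 was higher with either hairpin. Trim25 is a RING ubiquitin ligase that also acts on RIG-I. It read 1330, 1375 and 1398 in Ube2m shRNA arrays, 1345, 1378 and 1453 in Ube2f shRNA arrays and 1038, 923 and 1095 in control shRNA arrays. Both targeted groups lay above control and overlapped each other. Its log2 fold change was 0.42 with Ube2m shRNA (SE 0.10, adjusted p = 0.0251) and 0.45 with Ube2f shRNA (SE 0.10, adjusted p = 0.0278), and the hairpins differed by -0.02 (95% interval -0.25 to 0.20). All 3 probe sets of Trim25 moved the same way, with 0.35 to 0.42 for Ube2m shRNA and 0.45 to 0.68 for Ube2f shRNA. The calls were near the threshold. With Ube2m shRNA the adjusted p was 0.0556 to 0.0973 without any 1 of the Ube2m shRNA arrays or without control shRNA replicate 1 or 2. With Ube2f shRNA it was 0.0525 to 0.0909 in the 7 fits other than those without Ube2m shRNA replicate 3 or control shRNA replicate 3.

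The other genes of this class were not called, although all 6 tested had positive differences in both comparisons with control. Over all 10613 genes tested 4714 differences were positive with Ube2m shRNA and 5493 with Ube2f shRNA. Ube2l6, the E2 enzyme that hands ISG15 to its targets, read 179, 161 and 180 with Ube2m shRNA, 156, 175 and 149 with Ube2f shRNA and 104, 163 and 102 in control, where the middle array overlapped both targeted groups. Its differences were 0.47 (adjusted p = 0.178) and 0.36 (adjusted p = 0.354). Parp9 and Dtx3l, which act as a complex and are neighbours on chromosome 16 together with Parp14, had differences of 0.19 and 0.15 with Ube2m shRNA and of 0.20 and 0.08 with Ube2f shRNA. Trim21, a cytosolic antibody receptor with a ubiquitin ligase domain, had 0.02 and 0.30. Usp18, the protease that removes ISG15, was below the low-signal level.

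Of the 5 STAT and IRF factors 0 were called against control by limma (smallest adjusted p = 0.17), and at an unadjusted p under 0.05 there were 0 with Ube2m shRNA and 1 with Ube2f shRNA. Irf3, the factor that the sensors activate, read 568, 544 and 541 in Ube2m shRNA arrays, 861, 789 and 782 in Ube2f shRNA arrays and 756, 636 and 531 in control shRNA arrays. The targeted groups did not overlap each other, and control spanned most of the gap. Ube2m shRNA was lower than Ube2f shRNA by a log2 difference of -0.54 (SE 0.14, adjusted p = 0.0163). The chosen probe set is of a type that may match several transcripts, and without such probe sets the difference was -0.36 (adjusted p = 0.523). The call was also lost without Ube2m shRNA replicate 2 (adjusted p = 0.0607) or Ube2f shRNA replicate 1 (adjusted p = 0.0723).

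Irf1, a factor induced by interferon gamma, read 918, 865 and 862 with Ube2m shRNA, 768, 630 and 829 with Ube2f shRNA and 868, 654 and 658 in control, and its differences from control were 0.28 (adjusted p = 0.242) and 0.03. Irf7, the amplifier of the response, read 75.8, 79.9 and 92.9 with Ube2m shRNA and 102, 73.4 and 87.9 with Ube2f shRNA, against 66.0, 57.5 and 62.9 in control. Neither targeted group overlapped control, but 0.34 (adjusted p = 0.406) and 0.40 (adjusted p = 0.365) did not pass. Stat2 and Irf9, partners in the complex that binds the response element, had differences of 0.02 and -0.18 with Ube2m shRNA and of 0.28 and 0.18 with Ube2f shRNA.

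In antigen processing a different gene was called with each hairpin. Tapbp, which encodes tapasin, the bridge between the peptide transporter and MHC class I, read 2429, 2659 and 2567 in Ube2m shRNA arrays, 1487, 1466 and 1475 in Ube2f shRNA arrays and 1465, 1202 and 1139 in control shRNA arrays. The Ube2m group was far above both others, and Ube2f lay just above control. The log2 fold change with Ube2m shRNA was 1.01 against control (SE 0.11, adjusted p = 0.00022), a 2.01-fold rise, and 0.78 against Ube2f shRNA (SE 0.11, adjusted p = 0.000571). Both calls passed in all 22 alternatives, with values of 0.93 to 1.32 and 0.75 to 0.90. The second probe set of Tapbp gave larger differences, with 460 in Ube2m shRNA, 219 in Ube2f shRNA and 142 in control shRNA arrays (1.63 for Ube2m shRNA against control). With Ube2f shRNA against control the chosen probe set had 0.22 (95% interval -0.02 to 0.47, adjusted p = 0.287).

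Psmb9, a catalytic subunit that replaces a standard one in the immunoproteasome and changes the peptides cut for class I, was higher with Ube2f shRNA. It read 106, 102 and 127 in Ube2m shRNA arrays, 199, 178 and 147 in Ube2f shRNA arrays and 102, 83.4 and 77.6 in control shRNA arrays. The Ube2f group lay above both others. The difference was 0.88 on the log2 scale against control (SE 0.21, adjusted p = 0.0287), and Ube2m shRNA was lower than Ube2f shRNA by -0.58 (SE 0.21, adjusted p = 0.0815), which did not pass. The call against control was lost without Ube2f shRNA replicate 1 (0.79, adjusted p = 0.153) or replicate 2 (adjusted p = 0.0869) and without control shRNA replicate 2 (adjusted p = 0.0712) or replicate 3 (adjusted p = 0.073). It was also lost with no filter (adjusted p = 0.0898), with quantile normalization (adjusted p = 0.0935) and with only the compared groups in the fit (adjusted p = 0.0586), and it passed in 14 of 21 alternatives.

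Tap1, a subunit of the peptide transporter, did not share the difference of Psmb9, although both are transcribed from opposite strands of one promoter region and their windows share 275 of 300 bases. Tap1 read 159, 208 and 245 with Ube2m shRNA, 213, 188 and 272 with Ube2f shRNA and 252, 205 and 212 in control. The groups overlapped in every comparison, and the difference with Ube2f shRNA was 0.00 (95% interval -0.43 to 0.43). Tap2, the other transporter subunit, had -0.02 and 0.11. Psmb10, another immunoproteasome subunit, read 1106, 1140 and 951 with Ube2m shRNA, 1019, 1092 and 714 with Ube2f shRNA and 933, 888 and 631 in control, and was not called (0.39, adjusted p = 0.2, and 0.20, adjusted p = 0.591), though the first passed with a term for replicate 3. Psmb8, the third immunoproteasome subunit, read at most 28.1 on any array and was not tested. B2m, the light chain of class I, averaged 13690 ± 828 in Ube2m shRNA, 12814 ± 1112 in Ube2f shRNA and 11507 ± 287 in control shRNA arrays. Its difference with Ube2m shRNA was 0.25 (SE 0.10, adjusted p = 0.137), which passed within replicates 1 and 2 (0.30, adjusted p = 0.021) and with a term for replicate 3 (adjusted p = 0.0445). It passed in 3 of 22 alternatives and in 0 of the 9 leave-one-out fits (adjusted p = 0.0917 to 0.367). The second probe set of B2m gave 0.17. With Ube2f shRNA against control the chosen probe set of B2m had 0.15 (limma adjusted p = 0.426).

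**Figure D2:**
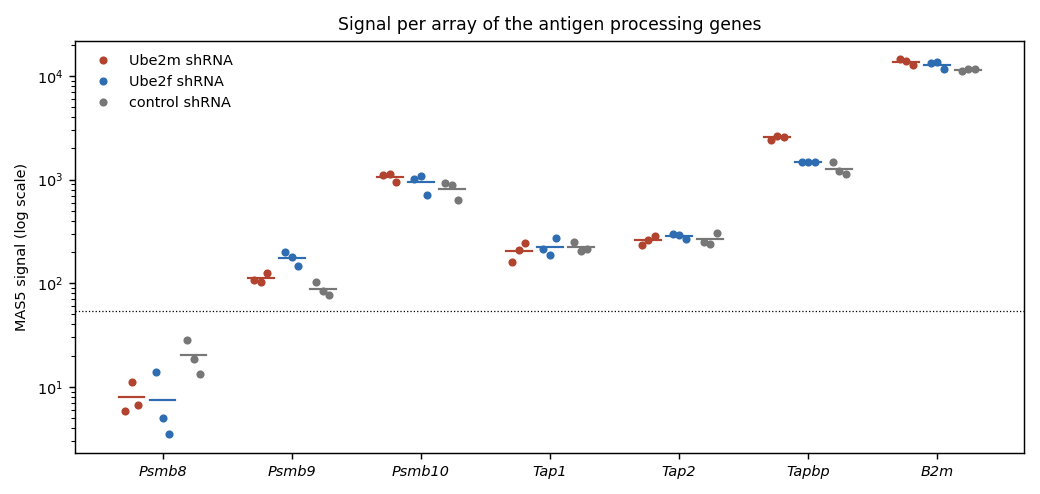
Signal per array (log scale) of the 7 antigen processing genes, with Ube2m shRNA left, Ube2f shRNA in the middle and control shRNA right of each gene. Points are the 3 arrays, short lines their means and the dotted line the low-signal level of 53.8. Tapbp separates the Ube2m shRNA arrays and Psmb9 the Ube2f shRNA arrays, the Tap1 and Tap2 points overlap, and all Psmb8 points lie under the dotted line. Heights of different genes are not comparable, since each comes from its own probes.

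**Figure D3:**
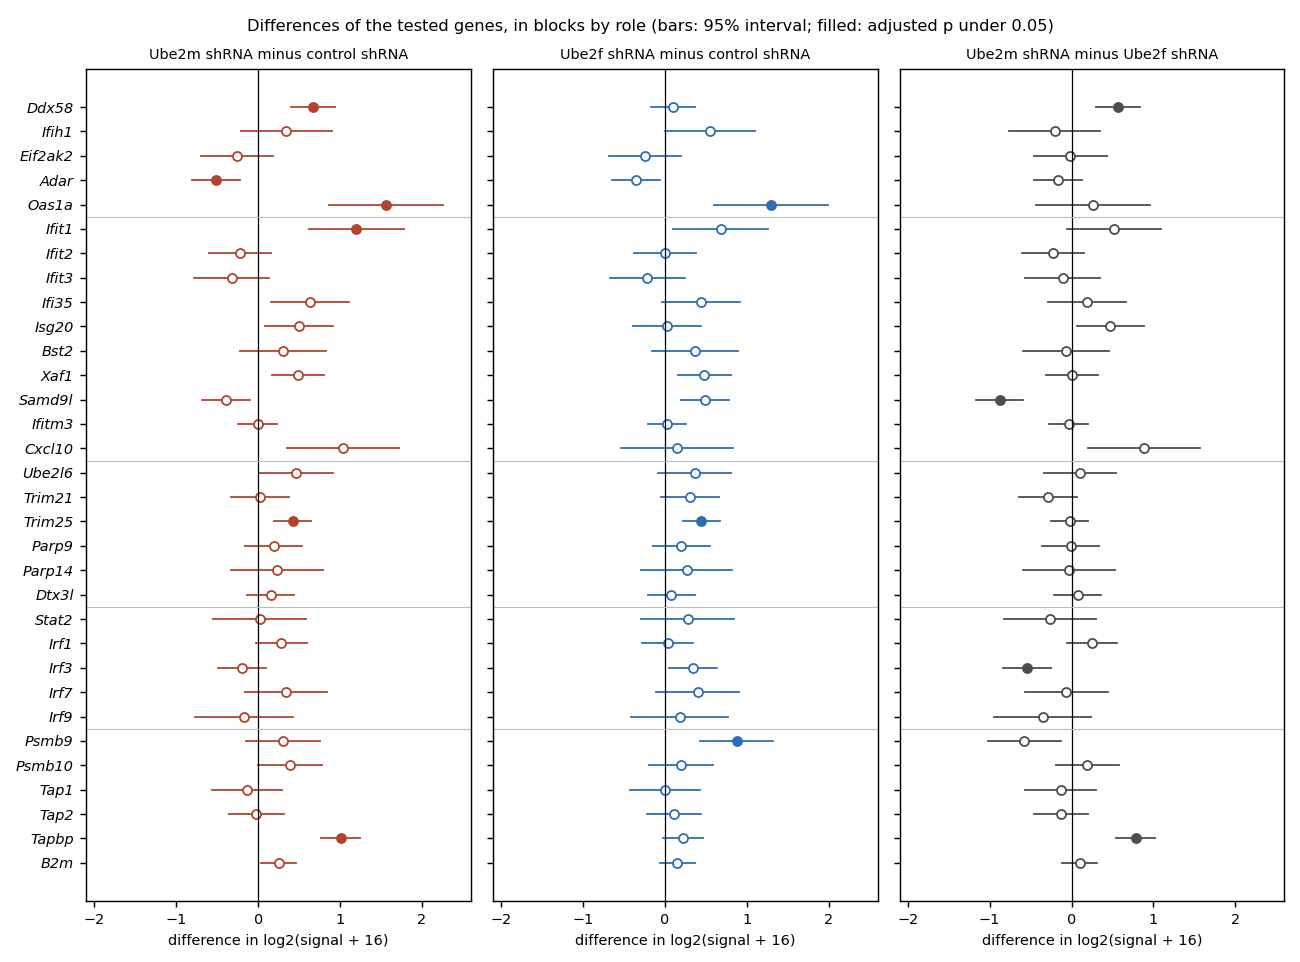
Differences in log2(signal + 16) of the 32 tested genes with their 95% intervals, in 3 panels for Ube2m shRNA minus control shRNA, Ube2f shRNA minus control shRNA and Ube2m shRNA minus Ube2f shRNA. Blocks from top to bottom are RNA sensors, antiviral effectors, conjugation genes, STAT and IRF factors and antigen processing, and filled points passed at an adjusted p of 0.05. Filled points number 6, 3 and 4, and 22, 27 and 13 of the 32 differences are positive. Over all 10613 genes tested 4714, 5493 and 4674 differences are positive.

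Counts in related lists stand beside 9.71% of all genes tested called with Ube2m shRNA and 5.19% with Ube2f shRNA, and lists this small are not read as moving. Of 16 genes for interferon receptors, JAK kinases and their inhibitors 1 rose with Ube2m shRNA and 2 rose with Ube2f shRNA, and 0 fell. These were feedback inhibitors. Socs3 averaged 1207 ± 67.5 in Ube2m shRNA and 1460 ± 66.1 in Ube2f shRNA arrays, against 890 ± 72.9 in control shRNA arrays (log2 fold change 0.44, adjusted p = 0.0249, and 0.71, adjusted p = 0.00254). Socs1 averaged 143 ± 21.5 in Ube2f shRNA arrays, against 50.9 ± 6.04 in control shRNA arrays (1.24, adjusted p = 0.02), and 102 ± 42.3 with Ube2m shRNA did not pass (0.77, adjusted p = 0.0982). Of 15 genes listed for signalling from nucleic acid sensors 0 passed against control by limma. At an unadjusted p under 0.05 2 differed with each hairpin. Tlr4 was among them both times, and it is on the list although it is not a nucleic acid sensor. Mavs, the adaptor of RIG-I, came nearest, at 0.48 with Ube2m shRNA (adjusted p = 0.0596). The 6 interferon genes measured, Ifnb1 among them, were all below the low-signal level on average.

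Of 10 tested genes of MHC class I and peptide loading 1 rose with Ube2m shRNA, the disulfide isomerase gene Pdia3 (0.55, adjusted p = 0.0345), and 0 were called with Ube2f shRNA (2 at an unadjusted p under 0.05). The class I heavy chain genes H2-K1 and H2-D1 had differences of 0.05 and 0.10 with Ube2m shRNA and of 0.05 and 0.11 with Ube2f shRNA. Of the 7 constitutive proteasome beta subunits 0 were called with either hairpin by limma, and 0 at an unadjusted p under 0.05, with differences of 0.07 to 0.23 with Ube2m shRNA and of -0.14 to 0.07 with Ube2f shRNA. Of 3 tested interferon-inducible GTPases Igtp rose with both hairpins, with 235 ± 96.6 in Ube2m shRNA and 210 ± 10.5 in Ube2f shRNA arrays, against 22.6 ± 24.3, under the low-signal level, in control shRNA arrays (2.80, adjusted p = 0.00106, and 2.73, adjusted p = 0.00191). Igtp passed the filter through the targeted groups, and these folds rest on the constant of 16. Of the same GTPases Gbp2 rose with Ube2f shRNA (0.88, adjusted p = 0.00997). Of 23 other tested interferon-stimulated genes 1 rose and 2 fell with Ube2m shRNA and 1 rose with Ube2f shRNA. They were Ifi30, a lysosomal thiol reductase of antigen processing (0.81, adjusted p = 0.0082), Pml (-0.53, adjusted p = 0.0267) and Helz2 (-0.76, adjusted p = 0.0161) with Ube2m shRNA, and the ligase gene Herc6 (0.71, adjusted p = 0.025) with Ube2f shRNA. Of 17 NF-kappaB targets 0 rose and 2 fell with Ube2m shRNA, and 1 rose with Ube2f shRNA. The chemokine gene Ccl7 was in both counts, with 563 ± 99.2 in Ube2m shRNA, 3508 ± 590 in Ube2f shRNA and 989 ± 120 in control shRNA arrays. Between the hairpins the calls in these lists were Tlr4 and Cxcl5, higher with Ube2m shRNA than with Ube2f shRNA, and Ifnar1, Irgm1, Gbp2, Herc6, Helz2, Ccl2, Ccl7 and Csf1, lower with Ube2m shRNA.

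Of the 12 tested genes with the core in a window 3 rose and 0 fell with Ube2m shRNA, with a median log2 difference of 0.28 and a range from -0.32 to 1.56. Of the 17 tested genes with a window but no core 2 rose and 1 fell, with a median of 0.30 and a range from -0.52 to 1.01. Of all genes tested 3.59% rose and 6.12% fell, and 2 of the 3 rises, Oas1a and Ifit1, passed the filter through their high groups. Cxcl10, which has the core and was not called, passed it in the same way. With Ube2f shRNA 1 of the 12 and 2 of the 17 rose, against 2.23% of all genes, with medians of 0.22 for both. These are descriptions of chosen genes and carry no test.

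**Figure D4:**
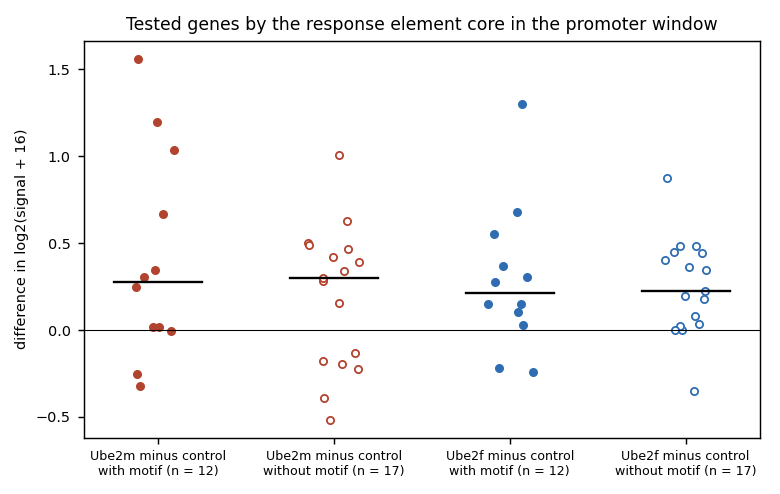
Differences in log2(signal + 16) of tested genes with a promoter window, split by whether the window holds the response element core on either strand (filled, n = 12) or not (open, n = 17), for Ube2m shRNA minus control shRNA at left and Ube2f shRNA minus control shRNA at right. Points are genes, with random sideways spread, and black lines are medians. The medians with and without the core are 0.28 and 0.30 for Ube2m shRNA and 0.22 each for Ube2f shRNA.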

How the data were processed

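RNA of 9 samples was hybridised to 1-colour Affymetrix arrays. The deposited values are intensity, the linear signal per probe set made by the authors with MAS5, per the submitters' processing notes. No version, setting or detection call is given there. The mean of each array, trimmed by 2% at both ends of its 45101 probe sets, was 500, which scales an array by 1 factor and leaves differences in the shape of its distribution. MAS5 signals vary most near background, which is why a constant of 16 was added before log2 and low signals were filtered.

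Control probe sets (64), those assigned to several genes (932) and those with no gene (9160) were left out. Using limma 3.58.1 (R 4.3.3), group means were fitted over all 9 arrays. The eBayes step let the prior variance follow intensity and had 6.55 prior degrees of freedom, and two-sided p-values were adjusted by Benjamini-Hochberg over 10613 genes. SE and 95% intervals come from that fit. With 3 arrays a group, exact permutation reaches no p below 0.1 and was not used. The labels call the replicates biological, with no more on their source, and p-values measure the spread between these arrays. The number of arrays limits the precision. The fit was tested on simulated data.

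The genes and lists were chosen with earlier results of these data known. Named with full values were the genes of the set that passed in any comparison, the 3 largest differences in each direction per comparison and the 2 with the highest control signal, and at most 4 genes of smallest p from each list. Xaf1, Ifi35 and others printed by array were chosen after their values were seen. Names came from the probe table, checked against a mouse reference by gene ID, which listed 34741 of 34945 probe sets with 1 gene. Promoter windows are RefSeq's, build GRCm38.p6. Alternatives covered the constant, filter, probe sets, scaling, samples, trend, replicate number and single arrays.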

Additional observations from a re-analysis of the deposited data

How the results depend on the processing

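The count of called genes among the 32 changed most upward with a term for replicate number and fell with some single arrays left out. With Ube2m shRNA against control 6 were called, 12 with a replicate block (the 13 named for the term for replicate 3, without B2m), 13 with that term, and 3 to 8 with single arrays left out. With Ube2f shRNA against control 3 were called, 5 with the replicate block (Ifi35 and Samd9l added), 6 with the term for replicate 3, 1 with no filter, 1 with the stricter filter, 0 with only the groups compared in the fit, and 0 to 3 with single arrays left out. With limma 9 of the 32 had an unadjusted p under 0.05 there and 14 with Ube2m shRNA against control, with no share over all genes given. Between the hairpins 4 were called, 2 when the probe sets of each gene were averaged, 5 with the replicate block, 6 with that term, and 3 to 5 with single arrays left out. Deviations of same-numbered arrays of different groups correlated from -0.00462 to 0.557, and those of other arrays from -0.387 to 0.276. In 10 of 18 pairings of an array with another group its own number correlated best, and by the rule used the numbers were not taken as pairs. The replicate 3 arrays did go together, at 0.557, 0.317 and 0.349. Their correlations with arrays of other numbers were all negative, from -0.387 to -0.0634. The reported fit has no term for this and leaves it in the spread. The cause of the shifts in the counts was not tested. Shares over all genes are not given beside each count, so the shifts are not read as particular to these genes. Over all genes tested the calls ranged over the alternatives from 388 to 2118 with Ube2m shRNA against control (1031 as reported), from 195 to 1461 with Ube2f shRNA against control (551) and from 1017 to 2714 between the hairpins (1672).

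Single differences near 0 changed sign, none of them called in either setting. Irf3 with Ube2m shRNA against control was 0.022 as the average of its probe sets, and 0.073 when those of less specific type were left out. With arrays centred on their medians Ifitm3 was -0.020 with Ube2f shRNA against control and 0.0026 between the hairpins, and Trim25 between the hairpins was 0.012, and 0.0053 with quantile normalization. With single arrays left out, Ifitm3 ranged from -0.066 to 0.056 with Ube2m shRNA against control, from -0.048 to 0.098 with Ube2f shRNA against control and from -0.11 to 0.041 between the hairpins. Between the hairpins Oas1a ranged from -0.037 to 0.47 and Trim25 from -0.049 to 0.0065. Oas1a, Ifit1, Cxcl10 and Igtp are near or under the low-signal level in control, where signal over background limits their fold changes, and 10 of the 42 measured genes were too low to test.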
